A study of Mus musculus with 18 samples.

Results

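The change between day 7 and day 14 after the first tamoxifen injection was examined in small intestinal crypts of KO mice, with 3 libraries per day and 6 of the 18 RNA-Seq libraries of the series. KO mice carried Prmt1 fl/fl and Vil-CreERT2, a tamoxifen-activated Cre recombinase driven by the villin promoter and so restricted to intestinal epithelium. WT mice were littermates of matched age and sex with Prmt1 fl/fl and no Cre. Mice of both genotypes were 8 to 12 weeks old and received 2 mg of tamoxifen per injection on days 0 to 4, so all mice of both days had 5 injections, the last of them before day 7. The comparison therefore asks what moved in KO crypts after the drug had ended. The 3 WT libraries of each day (WT day 14 against WT day 7) show what the same interval did without Cre, and the day 2 libraries of both genotypes, collected while injections were still being given, served to estimate the spread and are given as levels. Each library came from 1 mouse, and no mouse was sampled on both days. The 20 genes that the study removed from its own tests, 10 of them Y-linked, were left out.

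Crypts are the pits of the intestinal lining in which epithelium is made. Stem cells at the base divide, their daughters divide further and then become absorptive enterocytes or secretory cells, which are mucus-making goblet cells, hormone-making enteroendocrine cells (EECs), chemosensory tuft cells and the antimicrobial Paneth cells that stay between the stem cells. After injury, surviving epithelial cells take on a regenerative programme and refill the crypt. PRMT1 is the enzyme that places most asymmetric dimethylarginine on histones and other proteins. NRF2 is a transcription factor that is held back by KEAP1 until oxidants or electrophiles release it. It then binds antioxidant response elements and raises genes that make and recycle glutathione and conjugate toxic compounds. Villin-driven Cre acts in the epithelium and leaves Prmt1 intact in other cells, and crypts released with EDTA also carry some of those cells.

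The libraries were epithelial in both groups. Epcam, an epithelial adhesion gene, had 757 to 1027 CPM (counts of a gene scaled to the size of its library) in the KO day 7 libraries and 834 to 973 CPM in the KO day 14 libraries. Ptprc, the pan-leukocyte gene CD45, had 19.5 to 51.9 CPM and 25.5 to 28.8 CPM. Depth did differ between the days: the KO day 7 libraries held 22896441 to 29330630 counts and the KO day 14 libraries 15390043 to 19982869, with no overlap. Y-linked genes passed 100 CPM in 1 of 3 KO libraries of day 7 and in 2 of 3 of day 14, and in 1 of 3 and 2 of 3 WT libraries. Prmt1 itself, counted over the whole gene, had 13.6, 17.4 and 16.4 CPM in the KO libraries of day 7 and 16.1, 14.95 and 15.1 CPM in those of day 14. The 2 days overlapped, with a log2 change of -0.04 (SE 0.14) and an adjusted p of 0.966 in the quasi-likelihood test of edgeR, adjusted by Benjamini-Hochberg. The WT means were 23.8 ± 1.93 CPM on day 7 and 25.3 ± 5.202 CPM on day 14 (SD, n = 3).

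Between day 7 and day 14, 10 genes changed in KO crypts at an adjusted p under 0.05. Mycl, Zfp395, Sox9 and Sorcs2 rose, and Gsr, Pir, Ero1l, Hspbap1, Ak4 and the gene model Gm10801 fell. These 10 are 0.0468% of the 21349 genes tested, 0.0187% higher and 0.0281% lower. At an unadjusted p below 0.05 stood 1978 genes (9.27%), 1194 of them higher (5.59%) and 784 lower (3.67%), and the median log2 change of all tested genes was -0.01. WT crypts gave 17 genes over the same interval (0.0796%), 8 higher (0.0375%) and 9 lower (0.0422%), with 1105 (5.18%) at an unadjusted p below 0.05, 2.46% higher and 2.71% lower, and with 4.63% of genes separated upwards and 5.41% downwards, meaning that all libraries of day 14 lay on one side of those of day 7. With 1 WT library left out that count was 0 to 10. The test of the KO change against the WT change called 0 genes with edgeR and 2 with DESeq2, with 953 (4.46%) at an unadjusted p below 0.05 in edgeR (2.53% higher and 1.93% lower), so no single gene's change was shown by edgeR to be particular to KO mice. That test uses the KO libraries again and is not independent of the KO comparison.

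The number called leaned on single libraries and on the fit. Without KO day 7 replicate 1 it was 0 (1100 genes at an unadjusted p below 0.05), without KO day 7 replicate 2 it was 3, and without KO day 7 replicate 3 it was 119. Without KO day 14 replicates 1, 2 and 3 it was 2, 0 and 3, with 1863 genes at an unadjusted p below 0.05 in the middle case. DESeq2 called 211 genes (0.679% higher and 0.309% lower), among them all 10, and a fit of the 6 KO libraries alone called 0 (1762 at an unadjusted p below 0.05). In every one of these 8 fits the 10 genes kept their direction and an unadjusted p below 0.05. With all libraries thinned to the smallest total the count was 17, and with the level of Y-linked genes as a covariate it was 12, and each of these included 9 of the 10.

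Of the genes that rose, Mycl and Sox9 are transcription factors. Mycl encodes L-Myc, a MYC family transcription factor (chr4:122995652-123002485, mm10). It had 5.29, 7.93 and 7.68 CPM in the KO libraries of day 7 and 13.8, 17.2 and 16.9 CPM in those of day 14. Every day 14 library lay above every day 7 library, by a log2 change of 1.19 (SE 0.16, adjusted p = 0.00687, the quasi-likelihood test of edgeR, adjusted by Benjamini-Hochberg). WT crypts held 18.99 ± 0.532 CPM on day 7 and 24.6 ± 3.53 CPM on day 14 (SD, n = 3), a log2 change of 0.37 (SE 0.15, adjusted p = 0.894), and KO crypts of day 2 held 19.8 ± 1.07 CPM.

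Sox9, a transcription factor of the crypt base that Paneth cells need (chr11:112782224-112787760), had 10.98, 16.95 and 20.2 CPM in KO crypts on day 7 and 29.99, 30.97 and 31.03 CPM on day 14. The days did not overlap, and the day 14 libraries lay close together while those of day 7 were further apart. Its log2 change was 0.93 (SE 0.16, adjusted p = 0.0472), and 0.73 without KO day 7 replicate 1, its lowest library. WT means were 26.7 ± 0.961 CPM and 34.9 ± 5.37 CPM, a log2 change of 0.39 (SE 0.16, adjusted p = 0.895).

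Zfp395, a zinc finger protein (chr14:65358389-65398930), had 2.94, 4.21 and 5.15 CPM and then 9.65, 10.1 and 9.31 CPM. Its day 14 values were 2.36 times the day 7 values on average, with a log2 change of 1.24 (SE 0.20, adjusted p = 0.0449). Sorcs2, a VPS10-domain sorting receptor (chr5:36017180-36398139), had 2.67, 4.28 and 5.59 CPM and then 9.01, 10.1 and 8.09 CPM, a log2 change of 1.12 (SE 0.20, adjusted p = 0.0472). Neither gene's days overlapped. In WT crypts their log2 changes over the interval were 0.35 (SE 0.18, adjusted p = 0.982) for Zfp395 and 0.04 (SE 0.18, adjusted p = 1) for Sorcs2. For all 4 risen genes KO day 7 replicate 1 was the lowest of the 3 libraries of its day.

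**Figure D1:**
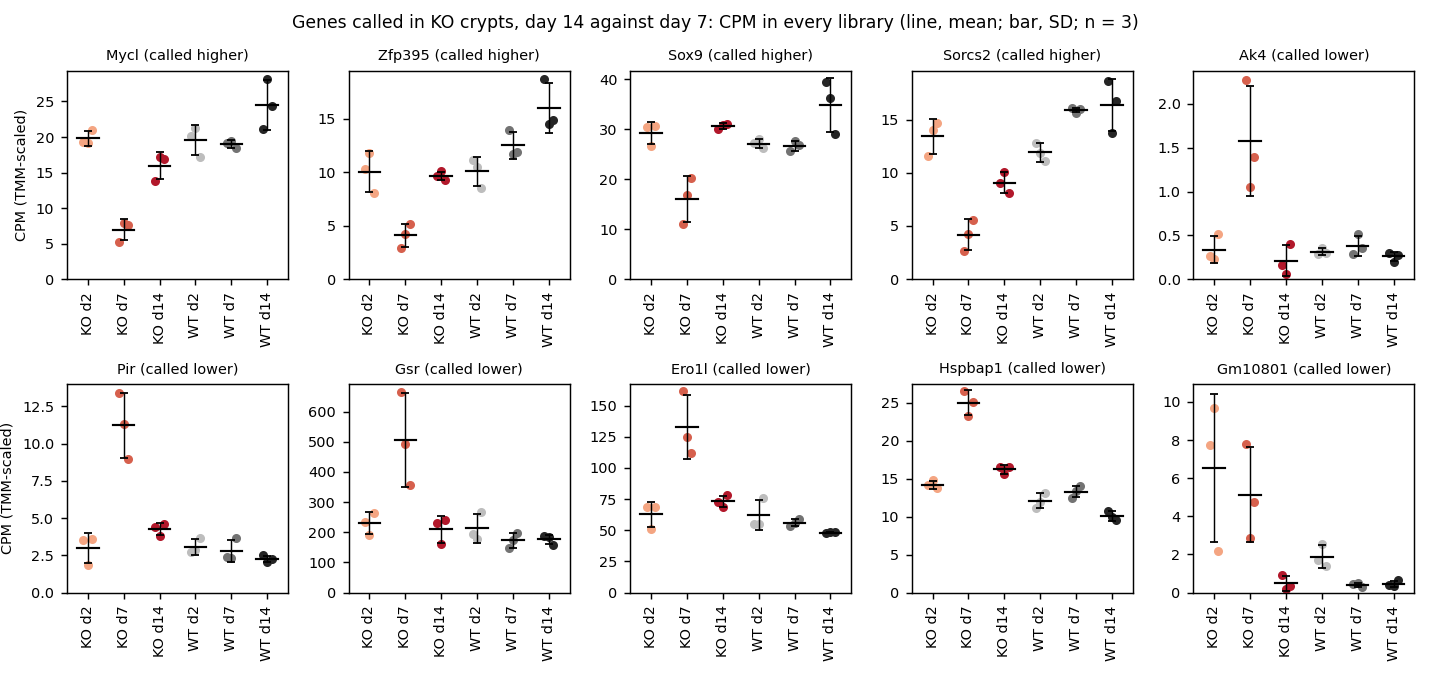
CPM of the 10 genes called in KO day 14 against day 7, 1 panel per gene with an axis that starts at 0, with 1 point for each of the 18 libraries by day and genotype (KO and WT), a line at each group mean and a bar of 1 SD (n = 3). In every panel the 3 KO libraries of day 14 lie on one side of the 3 KO libraries of day 7, as for Mycl at 13.8 to 17.2 CPM against 5.29 to 7.93 CPM and Gsr at 159 to 241 CPM against 357 to 666 CPM.

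The genes that fell include Gsr and Ero1l, enzymes of thiol chemistry. Gsr encodes glutathione reductase, which returns oxidized glutathione to its reduced form (chr8:33652523-33698163). It had 666, 493 and 357 CPM in the KO libraries of day 7 and 231, 159 and 241 CPM in those of day 14. The lowest day 7 library stood above the highest day 14 library, and the mean of day 14 was 41.6% of that of day 7, with a log2 change of -1.26 (SE 0.22, adjusted p = 0.0472). WT crypts held 174 ± 24.97 CPM and 176 ± 15.7 CPM (SD, n = 3), a log2 change of 0.02 (SE 0.22, adjusted p = 1).

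Pir encodes pirin, an iron-binding nuclear protein (chrX:164269371-164373011). Its KO libraries had 13.4, 11.3 and 8.99 CPM on day 7 and 4.43, 3.78 and 4.59 CPM on day 14, without overlap. The log2 change was -1.40 (SE 0.24, adjusted p = 0.0472), against -0.31 (SE 0.26, adjusted p = 0.999) in WT crypts, where the means were 2.77 ± 0.750 and 2.26 ± 0.222 CPM.

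Ero1l, the oxidase that feeds disulfide bond formation in the endoplasmic reticulum (chr14:45283087-45318771), had 162, 125 and 112 CPM and then 72.7, 68.6 and 77.9 CPM, a log2 change of -0.86 (SE 0.15, adjusted p = 0.0472). Hspbap1, whose protein binds the small heat shock protein HSPB1 (chr16:35770375-35828477), had 26.5, 23.3 and 25.1 CPM and then 16.5, 15.6 and 16.6 CPM, a log2 change of -0.62 (SE 0.11, adjusted p = 0.0472). Both were separated between the days. The WT changes were -0.22 (SE 0.15, adjusted p = 0.999) for Ero1l and -0.40 (SE 0.11, adjusted p = 0.517) for Hspbap1, and the KO change minus the WT change of Hspbap1 was -0.22 (SE 0.16).

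Ak4, a mitochondrial adenylate kinase (chr4:101419277-101466995), was weakly expressed, with 51, 30 and 32 counts in the KO libraries of day 7 and 3, 1 and 6 counts in those of day 14. These are 2.27, 1.05 and 1.40 CPM against 0.158, 0.0631 and 0.405 CPM. The day 14 libraries all lay below, by a log2 change of -2.91 (SE 0.49, adjusted p = 0.0472), a value whose size depends on few counts.

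Gm10801 is a predicted gene model with no known role (chr2:98662237-98664083). It had 175, 82 and 109 counts on day 7 and 17, 3 and 5 counts on day 14 in KO crypts, or 7.78, 2.88 and 4.76 CPM and then 0.896, 0.189 and 0.337 CPM, a log2 change of -3.36 (SE 0.58, adjusted p = 0.0472). Its WT means were 0.416 ± 0.103 and 0.447 ± 0.177 CPM on these days, but the KO mean of day 2 was 6.54 ± 3.89 CPM and the WT mean of day 2 was 1.88 CPM. Of its 467 stretches of 31 bases, 33.8% also occur in the similar models Gm10800, Gm21738, Gm10718, Gm11168 or Gm17535. How far reads of these copies can be told apart was not tested. Gm10800 had a log2 change of -3.28 (SE 0.61, adjusted p = 0.0791) and Gm21738 of -2.54 (SE 0.47, adjusted p = 0.0566), both chosen after their values were seen.

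The NRF2 and glutathione genes were lower on day 14 as a list in KO crypts. Of 30 genes tested, 28 had a log2 change below 0 and the median was -0.74, beside -0.01 over all tested genes and 0.00 for the same genes in WT crypts. By the test, 1 of the 30 passed adjustment, Gsr. At an unadjusted p below 0.05, 19 were lower and 1 was higher, against 3.67% and 5.59% of all genes, and in 14 genes (background 6.21%) all day 14 libraries lay below all day 7 libraries. DESeq2 called 9 of them lower (background 0.309%). Without KO day 7 replicate 1 the median was -0.49 and 12 were lower at an unadjusted p below 0.05 (background 1.91%). The difference between the KO and the WT change had a median of -0.70. In it 12 of 30 genes were lower at an unadjusted p below 0.05 (background 1.93%) and 0 higher. Without KO day 7 replicate 1, 7 were lower. For this difference with a library left out, no share over all genes is given, here and for the lists below. Those counts therefore have no background.

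Glutathione synthesis is represented by Gclc, Gclm and Slc7a11. Gclc, the catalytic subunit of glutamate-cysteine ligase, had 175, 104 and 86.7 CPM on day 7 and 50.7, 70.1 and 56.8 CPM on day 14 in KO crypts. The days did not overlap, and the log2 change of -1.04 (SE 0.19) had an adjusted p of 0.0566 in the quasi-likelihood test of edgeR, adjusted by Benjamini-Hochberg. Without KO day 7 replicate 1, its highest library, the value was -0.69. Gclm, the modifier subunit, had 110, 78.2 and 59.5 CPM and then 45.9, 63.8 and 54.3 CPM, with overlap (log2 change -0.59, SE 0.21, adjusted p = 0.319, and -0.33 without that library). Slc7a11, the cystine importer that supplies the cysteine, had 12.1, 2.88 and 4.80 CPM and then 1.53, 1.07 and 1.96 CPM. That is a log2 change of -2.11 (SE 0.60, adjusted p = 0.203), and -1.33 without KO day 7 replicate 1.

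Gpx2 and Gsta3 encode enzymes that use glutathione. Gpx2, the glutathione peroxidase of the gut epithelium, had 340, 364 and 263 CPM and then 195, 129 and 182 CPM (log2 change -0.93, SE 0.20, adjusted p = 0.0791). Gsta3, a glutathione S-transferase, had 58.2, 48.4 and 42.1 CPM and then 22.1, 20.2 and 27.9 CPM (log2 change -1.08, SE 0.23, adjusted p = 0.0810). Both were separated between the days. KO day 14 lay at 23.4 ± 4.0005 CPM of Gsta3 while WT crypts held 5.63 ± 1.18 CPM on day 7 and 4.91 ± 1.45 CPM on day 14 (SD, n = 3). Akr1b8, an aldo-keto reductase outside the list, had 167, 133 and 85.2 CPM on day 7 and 39.6, 27.1 and 59.5 CPM on day 14, and WT means of 7.40 ± 2.92 and 5.48 ± 1.44 CPM, with a log2 change in KO crypts of -1.61 (SE 0.33, adjusted p = 0.0945).

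G6pdx, the NADPH-producing entry to the pentose phosphate pathway, had a log2 change of -0.61 (SE 0.20, adjusted p = 0.286). Txnrd1, thioredoxin reductase, which uses NADPH, had -0.41 (SE 0.17, adjusted p = 0.443), and Ugdh, UDP-glucose dehydrogenase, which makes the precursor of glucuronic acid conjugates, had -0.97 (SE 0.26, adjusted p = 0.167). The log2 changes without KO day 7 replicate 1 were -0.35 for G6pdx, -0.28 for Txnrd1 and -0.63 for Ugdh. Hmox1, the haem-degrading enzyme, went the other way with 0.934, 0.702 and 0.568 CPM and then 0.211, 5.43 and 0.944 CPM. Its log2 change of 1.56 (SE 0.70, adjusted p = 0.500) rested on KO day 14 replicate 2, without which it was -0.40. Apart from Gsr, Gclc, Gpx2 and Gsta3, the list members named were chosen after values were seen.

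**Figure D2:**
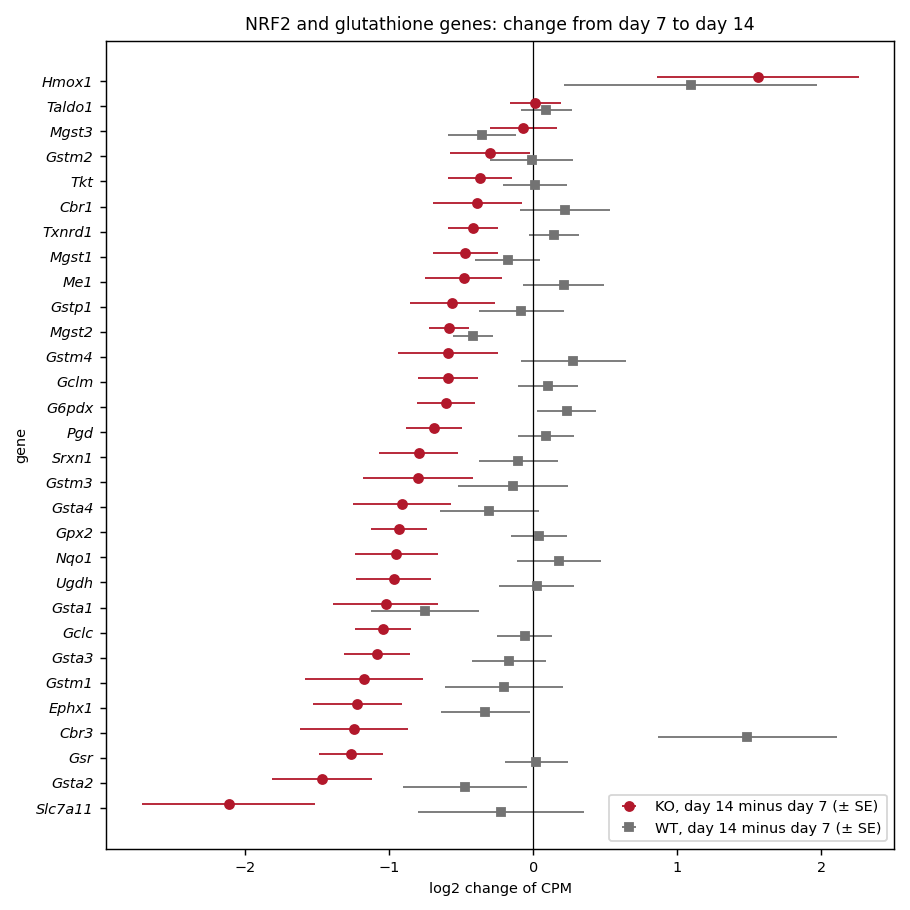
Log2 change of CPM from day 7 to day 14 for the 30 NRF2 and glutathione genes, sorted by the KO value, with circles for KO and squares for WT crypts and bars of 1 SE. The KO points of 28 genes lie below 0, from -2.11 for Slc7a11 upwards, while the WT points lie around 0 with a median of 0.00.

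Antioxidant response elements hold the core TGACNNNGC, where N is any base. This core was looked for on both strands in the 250 bases before the start of each gene as RefSeq gives it for GRCm38.p6, the patch release of mm10. Of 27025 genes with such a window 11.5% held it, and of 12259 tested genes 13.7%. It was found in 6 of 26 NRF2 and glutathione genes with a window (23.1%), which were G6pdx, Gclm, Gsta3, Mgst1, Txnrd1 and Ugdh. Of the 4 called genes with a window, 2 held it, Pir and Hspbap1. A match describes the letters alone, and binding was not measured. The windows below run 5′ to 3′ along each gene, with the core in capitals. Where it lies on the other strand, the reverse complement of the core is what the window shows. They are shown so that the surroundings of the core in the 2 called genes can be set beside those in 4 list members.
Pir (chrX:164269193-164269249, + strand): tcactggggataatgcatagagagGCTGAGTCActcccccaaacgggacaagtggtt
Hspbap1 (chr16:35770329-35770385, + strand): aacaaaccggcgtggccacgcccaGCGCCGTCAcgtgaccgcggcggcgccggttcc
G6pdx (chrX:74428905-74428961, − strand): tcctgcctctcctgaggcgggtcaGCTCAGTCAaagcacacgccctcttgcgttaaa
Gclm (chr3:122245399-122245455, + strand): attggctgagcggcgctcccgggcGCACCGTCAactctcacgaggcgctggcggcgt
Txnrd1 (chr10:82859090-82859146, + strand): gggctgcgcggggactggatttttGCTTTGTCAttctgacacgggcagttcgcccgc
Ugdh (chr5:65435942-65435998, − strand): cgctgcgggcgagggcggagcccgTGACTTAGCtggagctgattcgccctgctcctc
Upstream of the gene start, the core began 214 bases away in Pir, 33 in Hspbap1, 57 in G6pdx, 134 in Gclm, 92 in Txnrd1 and 132 in Ugdh. Read on the strand that gives TGACNNNGC, the core was TGACTCAGC in Pir, TGACGGCGC in Hspbap1, TGACTGAGC in G6pdx, TGACGGTGC in Gclm, TGACAAAGC in Txnrd1 and TGACTTAGC in Ugdh, which has another match, not shown.

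Genes of the integrated and endoplasmic reticulum stress responses, which slow translation and raise folding capacity, were also lower on the whole. Of 31 tested, 27 had a value below 0 and the median was -0.40 (-0.10 in WT crypts). In edgeR 0 passed adjustment (Ero1l is not on this list) and DESeq2 called Hspa5 and Creld2 lower (background 0.309%) and Ddit4 higher (background 0.679%). At an unadjusted p below 0.05, 15 were lower (background 3.67%) and 1, Ddit4, was higher (background 5.59%), and 14 were separated downwards (background 6.21%). Among the 15 were the chaperones Hspa5, Hsp90b1, Calr, Hyou1 and Manf and the serine synthesis enzymes Phgdh and Psat1, listed after their values were seen. Without KO day 7 replicate 1 the median was -0.26 and 5 were lower at that p (background 1.91%). Hspa5, the chaperone BiP, had 1112.5, 968 and 781 CPM on day 7 and 651, 569 and 587 CPM on day 14 in KO crypts (log2 change -0.66, SE 0.19, adjusted p = 0.195), and -0.43 (SE 0.19, adjusted p = 0.959) in WT crypts. Hsp90b1, the chaperone GRP94, had a KO log2 change of -0.51 (SE 0.18, adjusted p = 0.319). The difference from the WT change had an unadjusted p below 0.05 in 2 of 31 genes, Atf3 and Psat1, both lower (background 1.93%), against 0 to 7 lower with 1 of the 12 libraries left out. The list counts 31 because its symbol Ddit3 belongs to a pair of gene identifiers.

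Targets of p53, the factor that halts or kills damaged cells, had a median of -0.29 in KO and of 0.16 in WT crypts. None of 30 passed adjustment in edgeR, whereas DESeq2 called Phlda3, Bax, Plk2 and Eda2r lower (background 0.309%) and Ddit4 higher (background 0.679%). At an unadjusted p below 0.05, 10 were lower (background 3.67%) and 2 higher (background 5.59%), and 11 were separated downwards (background 6.21%). The median was -0.30 without KO day 7 replicate 1, with 9 lower (background 1.91%). Phlda3, a p53 target that restrains AKT, had 2.62, 3.69 and 2.14 CPM on day 7 and 0.580, 0.883 and 0.472 CPM on day 14. All day 14 libraries lay below the day 7 libraries, with a log2 change of -2.12 (SE 0.42, adjusted p = 0.0628), and WT means were 0.675 ± 0.208 and 0.485 ± 0.231 CPM.

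Bax, which opens the mitochondrial membrane in apoptosis, had 27.2, 26.1 and 21.4 CPM and then 14.3, 17.1 and 18.8 CPM (log2 change -0.58, SE 0.14, adjusted p = 0.115), without overlap. Cdkn1a, the cell cycle inhibitor p21, had 99.3, 74.3 and 59.4 CPM and then 39.7, 60.5 and 48.8 CPM, where the days overlapped (log2 change -0.65, SE 0.27, adjusted p = 0.446, and -0.43 without KO day 7 replicate 1). The 2 targets with values above 0 at an unadjusted p below 0.05 were Btg2, an antiproliferative gene, at 0.51 (SE 0.19) and Ddit4, an inhibitor of mTORC1, at 0.86 (SE 0.23), and their WT values were 0.42 and 0.73. The log2 change of Btg2 was 0.33 without KO day 14 replicate 2. Perp, a desmosome gene, had a log2 change of -0.27 (SE 0.21), and of -0.08 without KO day 7 replicate 1. Of these, Bax, Cdkn1a, Btg2 and Ddit4 were chosen after their values were seen. The difference from WT had an unadjusted p below 0.05 in 10 of 30 genes, all lower (background 1.93%).

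Of 23 regenerative epithelium genes, 18 had values below 0 and the median was -0.40 (0.18 in WT crypts, and -0.20 in KO crypts without KO day 7 replicate 1). In edgeR 0 passed adjustment, 5 were lower at an unadjusted p below 0.05 (background 3.67%) and 7 were separated downwards (background 6.21%). Those 5 were Ly6a, Areg, Anxa3, Il33 and F3, named after their values were seen, and DESeq2 called the first 3 (background 0.309%). Ly6a, the surface antigen Sca-1 of repairing gut epithelium, had 14.9, 3.83 and 5.98 CPM and then 1.84, 0.631 and 1.62 CPM, a log2 change of -2.57 (SE 0.59, adjusted p = 0.115). Areg, the EGF receptor ligand amphiregulin, had 38.4, 23.9 and 18.7 CPM and then 6.11, 13.9 and 6.48 CPM, a log2 change of -1.62 (SE 0.38, adjusted p = 0.115). Both were separated between the days. WT means on the 2 days were 0.605 ± 0.159 and 1.21 ± 1.17 CPM for Ly6a and 1.69 ± 0.725 and 2.47 ± 0.240 CPM for Areg. The members with the highest levels gave no clear difference. Reg3b, an antimicrobial lectin, spread from 404 to 1996 CPM on day 7 alone, and Anxa2 had a log2 change of -0.40 (SE 0.25, adjusted p = 0.681), and of -0.20 without KO day 7 replicate 1.

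Interferon-stimulated genes had a median of -0.29 in KO and of 0.33 in WT crypts. Of 43, 7 were lower at an unadjusted p below 0.05 (background 3.67%) and 0 higher, 0 were called by edgeR or DESeq2, and without KO day 7 replicate 1 the median was -0.09 with 0 at that p. The difference between the KO and the WT change had a median of -0.54, with 9 of 43 lower (background 1.93%) and 0 higher at that p. With 1 of the 12 libraries left out the count ran from 3, without KO day 7 replicate 1, to 14. All 25 genes of MHC antigen presentation had values below 0, with a median of -0.31 (0.31 in WT crypts), but 0 reached an unadjusted p below 0.05 or a DESeq2 call, and the median was -0.03 without that library. H2-K1, a class I heavy chain, had 983, 628 and 607 CPM and then 542, 640 and 625 CPM. Its high value on day 7 was that of replicate 1.

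Stem cell markers were higher as a list on day 14. Of 24 tested, 23 had values above 0, with a median of 0.50 in KO crypts and 0.14 in WT crypts. Sox9, which this list shares with the Paneth cell genes, passed adjustment, 12 were higher at an unadjusted p below 0.05 (background 5.59%) and 0 lower (background 3.67%), and 10 were separated upwards (background 7.73%). DESeq2 called Ascl2, Sox9, Olfm4 and Slc12a2 (background 0.679%). Without KO day 7 replicate 1 the median was 0.29, with 8 higher at that p (background 3.15%). The KO change minus the WT change had a median of 0.33, with 6 of 24 higher (background 2.53%) and 0 lower at that p. With 1 of the 12 libraries left out, 2 to 9 were higher. In bulk crypts fewer cells of a type and less RNA per cell cannot be told apart, which holds for every cell type list here.

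Lgr5, the receptor that marks crypt base stem cells, had 5.07, 12.1 and 18.2 CPM in KO crypts on day 7 and 23.2, 20.5 and 24.3 CPM on day 14. The days did not overlap, day 7 spread widely, and the log2 change of 0.94 (SE 0.29) had an adjusted p of 0.241 in the quasi-likelihood test of edgeR, adjusted by Benjamini-Hochberg. WT means were 35.4 ± 5.62 and 40.4 ± 7.81 CPM. Olfm4, a secreted glycoprotein of the same cells, had 206, 614 and 590.5 CPM and then 1175, 1010.3 and 948 CPM, a log2 change of 1.15 (SE 0.28, adjusted p = 0.119), or an adjusted p of 0.00785 in DESeq2. Ascl2, a transcription factor of stem cells, had 1.82, 4.07 and 4.06 CPM and then 6.33, 6.12 and 7.35 CPM (log2 change 0.98, SE 0.27, adjusted p = 0.181). Ascl2 was chosen after its values were seen. For these 3 genes the values without KO day 7 replicate 1 were 0.59, 0.80 and 0.70.

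Paneth cell genes had a median of 0.94 over 25 tested genes (0.11 in WT crypts), with 22 above 0. Apart from Sox9 none passed adjustment, 11 were higher at an unadjusted p below 0.05 (background 5.59%) and 0 lower, 13 were separated upwards (background 7.73%) and 1 downwards (background 6.21%), and DESeq2 too called Sox9 alone. The median was 0.56 with 5 higher at that p (background 3.15%) without KO day 7 replicate 1. Lyz1, the Paneth cell lysozyme, had 751, 1796 and 1678 CPM and then 3640.5, 3448 and 3106 CPM. All day 14 libraries lay above, with a log2 change of 1.27 (SE 0.38, adjusted p = 0.209), and WT means were 4894 ± 1623 and 6422 ± 2901 CPM. The defensin Defa20, 1 of many near-identical copies whose shared reads can be lost in counting, had a log2 change of 1.40 (SE 0.45, adjusted p = 0.277). Both were chosen after their values were seen. In the difference from WT 1 of 25 genes, Sox9, was higher at an unadjusted p below 0.05 (background 2.53%), against 0 to 9 with 1 of the 12 libraries left out. With a block for the replicate number within each day, 9 were higher.

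Tuft cell genes were all above 0. Their 22 values ran from 0.16 to 1.36 with a median of 0.89, and the WT median was 0.21. By edgeR 0 passed adjustment and DESeq2 called Avil, Trpm5, Dclk1, Alox5 and Sh2d7 (background 0.679%), while 15 were higher at an unadjusted p below 0.05 (background 5.59%), 0 were lower, and 16 were separated upwards (background 7.73%). The median without KO day 7 replicate 1 was 0.59, with 12 higher (background 3.15%). Avil, the actin-binding protein advillin of tuft cells, had 6.49, 10.3 and 9.56 CPM and then 16.97, 19.6 and 16.9 CPM, a log2 change of 1.02 (SE 0.19, adjusted p = 0.0566). Trpm5, the cation channel of taste signalling, had 10.4, 20.4 and 23.7 CPM and then 34.3, 35.3 and 32.5 CPM (log2 change 0.90, SE 0.20, adjusted p = 0.0981). Dclk1, a kinase used as a tuft cell marker, had 5.78, 15.5 and 17.03 CPM and then 29.8, 29.96 and 22.4 CPM (log2 change 1.10, SE 0.26, adjusted p = 0.115). Pou2f3, the transcription factor that specifies tuft cells, had 0.222, 1.83 and 2.05 CPM and then 4.48, 3.60 and 2.56 CPM. Its log2 change was 1.36, and 0.88 without KO day 7 replicate 1. It was chosen after its values were seen. In all 4 genes the days did not overlap and KO day 7 replicate 1 was lowest. The difference from the WT change had an unadjusted p below 0.05 in 7 of 22 genes, all higher (background 2.53%). Without KO day 7 replicate 1, 2 of 22 were higher, with no background given for that fit.

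**Figure D3:**
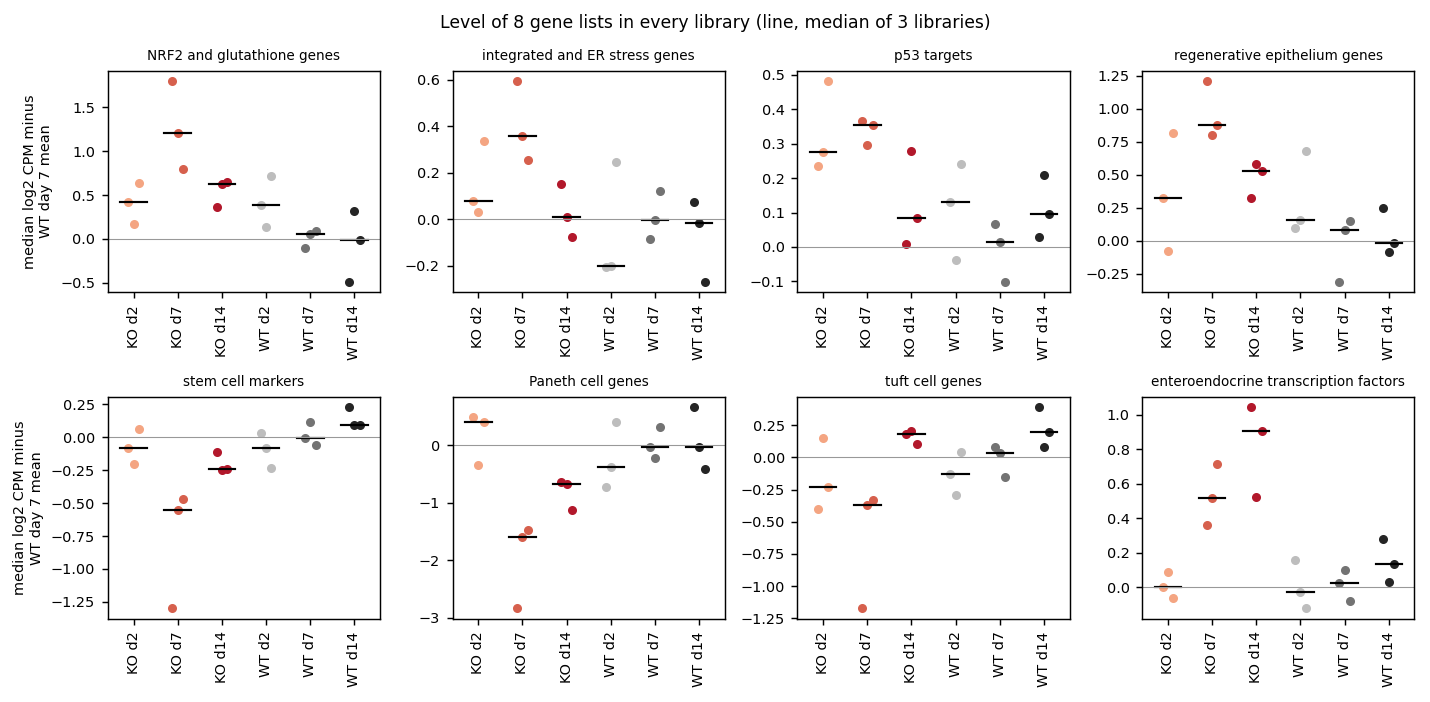
Level of 8 gene lists in each library, as the median over the list of log2 CPM minus the WT mean of day 7, with 1 point per library by day and genotype and a line at the median of the 3 libraries. Stem cell markers ran from -1.30 to -0.47 in KO libraries of day 7 and from -0.25 to -0.11 on day 14, tuft cell genes from -1.17 to -0.33 and from 0.11 to 0.21, and NRF2 and glutathione genes from 0.79 to 1.80 and from 0.36 to 0.65.

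By library, these levels put numbers on the spread. Relative to the WT mean of day 7, the median log2 level of the stem cell markers was -1.30, -0.56 and -0.47 in the KO libraries of day 7 and -0.11, -0.25 and -0.24 in those of day 14. For Paneth cell genes it was -2.84, -1.59 and -1.48 and then -0.64, -0.68 and -1.14. For NRF2 and glutathione genes it was 1.80, 1.21 and 0.79 and then 0.36, 0.62 and 0.65. In these 3 lists and in the tuft cell genes the days did not overlap, and KO day 7 replicate 1 was the library furthest from the WT mean in each. The days did not overlap either in the integrated and endoplasmic reticulum stress, p53 target, regenerative epithelium and Notch pathway lists.

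Enteroendocrine transcription factors had a median of 0.33 over 27 tested genes (0.10 in WT crypts, and 0.34 in KO crypts without KO day 7 replicate 1). In edgeR 0 passed adjustment and DESeq2 called Foxa2, Mnx1 and Glis3 (background 0.679%), while 10 were higher at an unadjusted p below 0.05 (background 5.59%) and 0 lower, and 11 were separated upwards (background 7.73%). Leaving out KO day 7 replicate 1 left 7 higher at that p (background 3.15%). Mnx1, a homeobox factor of serotonin-making EECs, had 1.201, 1.83 and 1.44 CPM and then 3.53, 2.78 and 4.99 CPM, a log2 change of 1.32 (SE 0.25, adjusted p = 0.0566). The 2 members with the highest levels, Mlxipl and Rfx7, had log2 changes of 0.33 (SE 0.24) and -0.00 (SE 0.11). The difference from WT had an unadjusted p below 0.05 in 5 of 27 genes, Fev, Lmx1a, Myt1, Mnx1 and Pax4, all higher (background 2.53%). Without KO day 7 replicate 1, 2 of 27 were higher, with no background given for that fit.

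Hormone and granule genes of EECs had a smaller median, 0.11 over 24 genes (0.03 in WT crypts, and 0.23 in KO crypts without KO day 7 replicate 1). At an unadjusted p below 0.05, 5 were higher (background 5.59%) and 0 lower, and 0 passed adjustment in edgeR against Chga in DESeq2 (background 0.679%). Chga, a granule protein, had 147, 143 and 135 CPM and then 217, 248 and 189 CPM, a log2 change of 0.62 (SE 0.18, adjusted p = 0.189), while Chgb, its relative, had overlapping values and a log2 change of 0.15 (SE 0.19, adjusted p = 0.882). The other 4 were Pcsk1, Pcsk1n, Tph1 and Ucn3, named after their values were seen. Pcsk1 encodes a prohormone convertase, at 0.48 (SE 0.14), and Tph1 the rate-limiting enzyme of serotonin synthesis in the gut, at 0.37 (SE 0.18). Tph1 stood at 42.1 ± 5.50 and 54.3 ± 9.80 CPM in KO crypts on the 2 days and at 11.7 ± 0.422 and 11.9 ± 2.04 CPM in WT crypts (SD, n = 3).

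Notch signalling steers the cells that receive it away from the secretory fate. Among Notch pathway genes, 4 of 18 were higher at an unadjusted p below 0.05 (background 5.59%) and 0 lower. The median of the 18 was 0.16 (0.04 in WT crypts), and 0 were called by edgeR or DESeq2. Leaving out KO day 7 replicate 1 left 2 higher at that p (background 3.15%). Notch1 had 32.9, 57.7 and 68.1 CPM and then 89.8, 70.1 and 93.4 CPM (log2 change 0.67, SE 0.20, adjusted p = 0.197). The other 3 were Notch2, the Notch modifier Lfng and the ligand Dll1, at 0.34 (SE 0.15), 0.50 (SE 0.20) and 0.37 (SE 0.14). Without that library the log2 changes were 0.43 for Notch1, 0.19 for Notch2, 0.25 for Lfng and 0.32 for Dll1. Goblet cell genes had a median of 0.01 over 19 genes, with Ccl6, Creb3l4 and Klk1 higher (background 5.59%) and Fer1l6 lower (background 3.67%) at that p, and a median between -0.01 and 0.14 with 1 library left out. Muc2, the main gel-forming mucin, had 4369.6, 3145 and 3508 CPM and then 3324, 3216 and 3298 CPM, and its log2 change of -0.16 (SE 0.19, adjusted p = 0.860) was within the spread. Ccl6, a chemokine of the goblet list at 19.5, 44.2 and 46.2 CPM and then 81.3, 93.6 and 75.7 CPM, had the largest value of that list, 1.19 (SE 0.26, adjusted p = 0.0981). It was the 1 gene of the list that DESeq2 called (adjusted p = 0.00247, background 0.679%), and it was named after its values were seen.

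Few genes of dividing and absorptive cells reached an unadjusted p below 0.05 in KO crypts. S phase and replication genes had a median of 0.04 over 32 genes (0.08 in WT crypts) with Rrm2 and E2f2 lower (background 3.67%) and 0 higher at an unadjusted p below 0.05, and mitosis genes of -0.06 over 27 (0.26 in WT crypts) with Hmmr lower. With 1 library left out these medians ran from -0.03 to 0.14 and from -0.13 to 0.05. The KO change minus the WT change of the mitosis genes had a median of -0.31, with 5 of 27 lower (background 1.93%) and 0 higher at that p, against 0 to 8 lower with 1 of the 12 libraries left out, the 0 being without KO day 7 replicate 2. Of the S phase genes, 2 of 32 were lower and 0 higher in that difference, against 0 to 3 lower and 0 to 1 higher with 1 of the 12 libraries left out, the 0 lower being without WT day 14 replicate 2. Mki67, the proliferation marker Ki-67, had 448, 549 and 473 CPM and then 527, 399.6 and 461 CPM, with a log2 change of -0.08 (SE 0.16, adjusted p = 0.929). Brush border genes of enterocytes had a median of -0.19 over 32 with 0 at an unadjusted p below 0.05, and fat absorption genes of -0.25 over 29 with Cd36 higher (background 5.59%) and Lpin3 lower (background 3.67%). These medians without KO day 7 replicate 1 were -0.10 and -0.04, with 0 genes of either list at that p, and without KO day 14 replicate 1 they were -0.10 and -0.11. Sis, the digestive enzyme sucrase-isomaltase, overlapped between the days at 3555 to 6212 CPM and 3611 to 5225 CPM. None of these 4 lists had a member called by edgeR or DESeq2. The other PRMT genes gave no value at an unadjusted p below 0.05 among 8, with log2 changes of -0.12 (SE 0.11) for Carm1 and -0.15 (SE 0.16) for Prmt5.

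**Figure D4:**
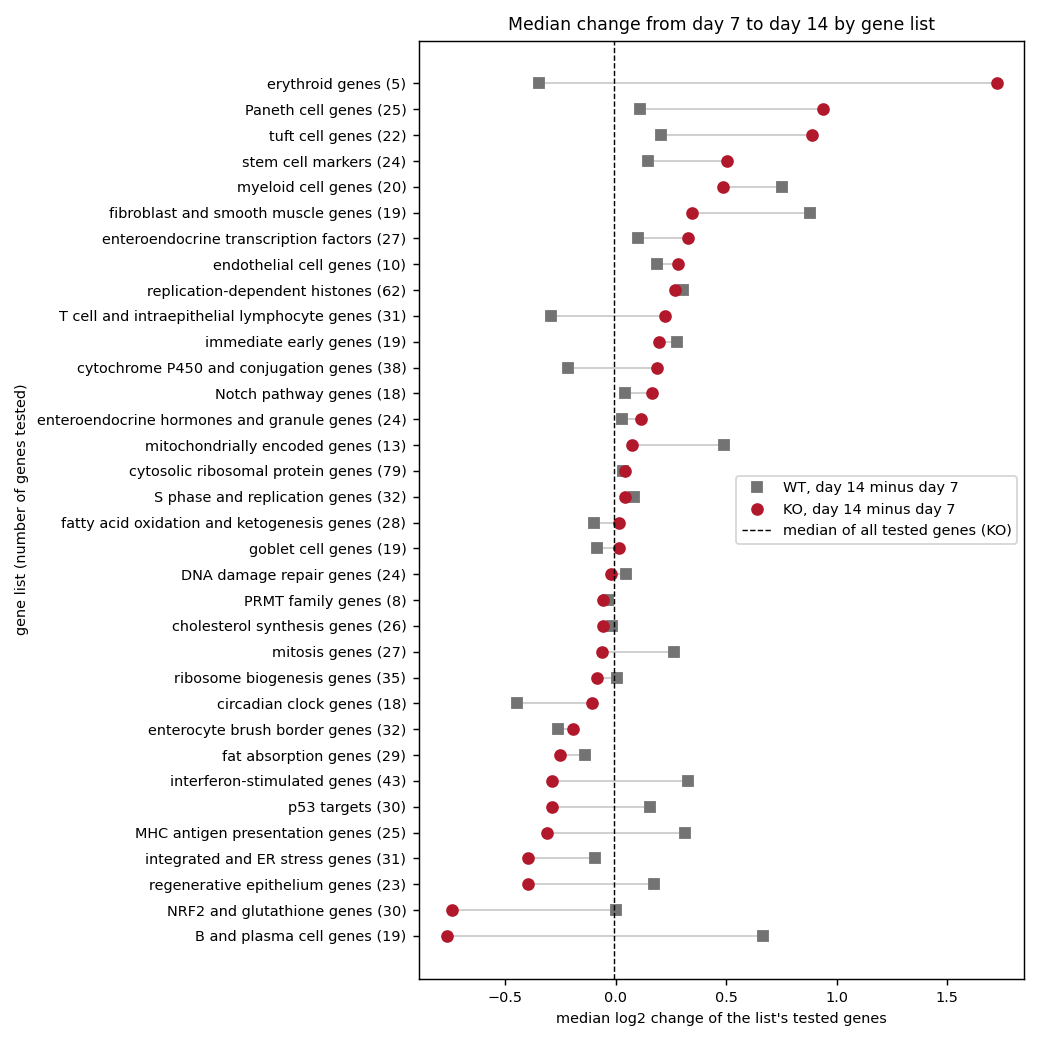
Median log2 change from day 7 to day 14 of 34 gene lists, with circles for KO and squares for WT crypts, the number of genes tested in parentheses and a dashed line at the median of all tested genes in KO crypts. Paneth cell genes (0.94 against 0.11) and tuft cell genes (0.89 against 0.21) lie far to the right for KO. NRF2 and glutathione genes lie far to the left (-0.74 against 0.00), and immune, stromal and erythroid lists vary in both genotypes. The KO medians of erythroid genes (1.72) and of B and plasma cell genes (-0.76) lie further out. Both turn sign with 1 library left out.

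Marker genes of cells from outside the epithelium did not differ in a uniform way between the days. Summed over its list, the level of T cell and intraepithelial lymphocyte genes was 165.6 to 257.7 CPM on day 7 and 209.6 to 335.6 CPM on day 14, and that of fibroblast and smooth muscle genes 173.8 to 243.5 and 206.8 to 404.9 CPM, both with overlap. B and plasma cell genes summed to 33.7 to 125.5 and 28.1 to 86.1 CPM, and endothelial genes to 28.1 to 34.5 and 28.1 to 32.7 CPM. Their medians in KO crypts were 0.22, 0.34, -0.76 and 0.28, with 0, 0, 0 and 3 genes at an unadjusted p below 0.05 (background 9.27%), the 3 being Prox1 higher and Egfl7 and Lyve1 lower. The sign of each median turned with 1 library left out. It was -0.03 for T cell genes without KO day 14 replicate 2, -0.21 for fibroblast and -0.03 for endothelial genes without KO day 14 replicate 3, and 0.59 for B and plasma cell genes without KO day 7 replicate 3. None of the markers Ptprc, Col1a1, Pecam1 and Hba-a1 was at 0 in any KO library of these days. Myeloid genes had a median of 0.48 with 4 of 20 higher at that p (background 5.59%), which were C1qb, Siglecf, Adgre1 and Lyz2, the myeloid lysozyme, and a WT median of 0.75 with 9 higher (background 2.46%). Without KO day 14 replicate 3 the KO median of the myeloid genes was -0.05. Lyz2 had 2.36, 4.49 and 8.86 CPM and then 12.1, 8.26 and 29.6 CPM. Lyz1 and Lyz2 are similar genes, and fragments that map to both were skipped in counting. The sum of myeloid genes was 36.9 to 62.5 and 54.6 to 93.9 CPM. Erythroid genes rested on KO day 14 replicate 3, in which their sum was 113.7 CPM against 10.2 to 25.8 CPM in the other 5 KO libraries. Their median was 1.72, and -0.33 without that library. The part of these cells in the epithelial values was not tested. Whether epithelial cells gave reads of these markers, such as Siglecf and Prox1, was not tested either. The other 10 lists, which cover lipid, sterol and drug metabolism, histones, DNA repair, ribosomes, mitochondrial, clock and immediate early genes, held 342 genes tested, of which 11 were higher (background 5.59%) and 9 lower (background 3.67%) at that p, 0 were called by edgeR and 1, Ces2b, was called higher by DESeq2, with medians from -0.11 to 0.27.

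The rule for named genes also brought in genes that belong to none of these lists and did not pass adjustment. On the higher side, Reg3a, an antimicrobial lectin, had 21.3, 29.9 and 29.1 CPM and then 63.1, 142 and 95.7 CPM, a log2 change of 1.90 (SE 0.35, adjusted p = 0.0628) against 0.21 (SE 0.34) in WT crypts. Timp3, an inhibitor of metalloproteinases, had 2.00, 2.84 and 3.06 CPM and then 4.59, 5.24 and 7.96 CPM (log2 change 1.16, SE 0.23, adjusted p = 0.0628). Plbd1, a phospholipase B-like protein, had 20.1, 22.5 and 22.1 CPM and then 33.6, 54.4 and 35.5 CPM (log2 change 0.93, SE 0.18, adjusted p = 0.0600), with WT means of 62.5 ± 11.3 and 63.9 ± 11.2 CPM. Gab1, an adaptor of receptor tyrosine kinases, Acvr1c, an activin-type receptor, and Fam171a1 had log2 changes of 0.84 (SE 0.16), 0.69 (SE 0.13) and 0.91 (SE 0.18), each with an adjusted p of 0.0600.

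On the lower side, Abca8b, an ABC transporter, had 2.76, 2.88 and 4.02 CPM and then 1.00, 1.01 and 1.21 CPM (log2 change -1.58, SE 0.31, adjusted p = 0.0628). Slc25a33, a mitochondrial carrier of pyrimidine nucleotides, had 5.69, 6.32 and 5.02 CPM and then 3.37, 3.34 and 2.43 CPM (log2 change -0.89, SE 0.19, adjusted p = 0.0813). Ccdc58, a mitochondrial protein, had 25.3, 23.03 and 21.4 CPM and then 17.3, 12.4 and 14.3 CPM (log2 change -0.66, SE 0.14, adjusted p = 0.0810). For all 9 of these genes, as the rule requires, the days did not overlap.

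Set against WT, the 10 called genes differed in how much of their change the interval alone showed. The KO change minus the WT change was 0.82 (SE 0.22) for Mycl, 0.89 (SE 0.27) for Zfp395, 0.55 (SE 0.23) for Sox9 and 1.08 (SE 0.27) for Sorcs2. It was -1.29 (SE 0.31) for Gsr, -1.09 (SE 0.35) for Pir, -0.64 (SE 0.22) for Ero1l, -2.37 (SE 0.75) for Ak4, -3.49 (SE 0.93) for Gm10801 and -0.22 (SE 0.16) for Hspbap1. All 10 had an adjusted p of 0.999 for this difference. Both genes that DESeq2 called for it had higher means on day 14 in KO crypts and lower means in WT crypts. Ces2b, a carboxylesterase, had 2.76, 4.84 and 3.27 CPM and then 5.43, 20.9 and 11.9 CPM in KO crypts, with WT means of 5.56 ± 1.39 and 3.44 ± 1.28 CPM. The gene model Gm830 had 0.0889, 0.281 and 0.524 CPM and then 1.42, 1.64 and 1.01 CPM, with WT means of 7.68 ± 2.74 and 5.83 ± 2.06 CPM. In edgeR these differences were 2.47 (SE 0.56) and 2.57 (SE 0.56), each with an adjusted p of 0.999.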

How the data were processed

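For all 18 libraries, 1 mouse each, the authors deposited raw gene counts in a single table, and the labels and methods describe the mice as biological replicates. TRIzol RNA of EDTA-released crypts was sequenced as paired-end total RNA libraries depleted of ribosomal RNA, aligned to mm10 with STAR 2.7.3 and counted with featureCounts 1.6.4. The file header names GENCODE release 23 and the methods a later one. Fragments were counted without strand, overlapping genes each received the fragment, and multimapping fragments were skipped. Values were checked to be whole numbers, and no pair of libraries was a duplicate.

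From 55335 genes, the 20 that the study removed were left out before TMM normalization, and filterByExpr of edgeR 4.0.16 (limma 3.58.1, R 4.3.3) by group left 21349. All 18 libraries were fitted with 1 mean per group by edgeR's robust quasi-likelihood method, p-values were adjusted by Benjamini-Hochberg over all genes, and the threshold was 0.05. The study itself used DESeq2, which was run as an alternative (version 1.42.0). SE is the absolute log2 change divided by the square root of F. The 3 contrasts were KO day 14 minus day 7, WT day 14 minus day 7, and the first minus the second. CPM values use TMM-scaled totals, and list levels use log2 CPM with a prior count of 2. "Separated" means that all 3 libraries of one day lie on one side of all 3 of the other. Python 3.11.15 with pandas 2.3.3 and matplotlib 3.10.9 searched promoters and drew plots. The fitting code was tested on simulated data.

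Genes named are Prmt1, Lgr5 and Olfm4, the called genes with at least 1 CPM on average whose days were separated, filled to 12 per direction with the genes of smallest p, and the called or else the 2 most abundant members of each of 34 lists. Predicted models were left out of this rule, and other genes are named as chosen after their values were seen. Ak4 and Gm10801, the called genes outside it, are named too. The genes and lists were chosen with earlier results of these data known. The alternatives were DESeq2, its size factors, other filters, the removed genes kept, the 20 most abundant genes left out, fits of the compared groups alone, a block for the replicate number, the level of Y-linked genes as covariate, each library left out, and, added after seeing the data, thinned libraries, a block for the number within each day and an adjusted p under 0.10.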

Additional observations from a re-analysis of the deposited data

How the results depend on the processing

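The count of 10 genes in KO crypts was 211 with DESeq2, 197 with no filter on low counts, 17 with a mean count of at least 50, 18 with the 20 most abundant genes left out, 0 with only the 6 KO libraries in the fit, 17 after thinning, 63 at an adjusted p under 0.10 and 0 to 119 with 1 library left out. It stayed within 1.5 times the main count with DESeq2's size factors (9), with the 20 removed genes kept (10) and with the Y-linked level as covariate (12). The WT count of 17 was 48 with DESeq2, 59 with no filter, 4 with only the WT libraries and 0 to 10 with 1 library left out. The count of 0 for the KO change minus the WT change was 2 with DESeq2, 2 with no filter and 0 to 2 with 1 library left out. With the replicate number as a block 5 genes were called in KO crypts (3 higher and 2 lower, 4 of them among the 10), 5 in WT crypts and 0 for the difference. Between days 7 and 14, same-numbered libraries had correlated deviations of -0.16, 0.04 and 0.04 in KO and 0.03, 0.16 and 0.07 in WT crypts. Between KO and WT crypts of a day, which the study describes as littermates matched by gender, they had 0.05, 0.16 and 0.38 on day 2, -0.16, 0.21 and 0.08 on day 7 and 0.23, 0.18 and 0.16 on day 14. Not every pair was over 0.1 on days 2 and 7, and although Y-linked transcripts were present or absent alike in the KO and WT library of each number and day, no source used here says that a number marks a litter, so the numbers were not taken to pair mice. With the replicate block within each day, added after seeing the data, 1 gene was called for the difference. List counts at an unadjusted p below 0.05 in the difference moved too. Paneth cell genes went from 1 to 9 higher, MHC genes from 1 to 13 lower and interferon-stimulated genes from 9 to 15 lower. Tuft cell genes went from 7 to 6 higher and stress response genes from 2 to 1 lower. No share over all genes is given for that fit. Causes of these shifts were not tested.

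For the 105 genes examined, 544 of 630 values with 1 library left out and 931 of 1034 under other alternatives kept their direction and side of the threshold. Signs turned in genes whose changes were near 0 or rested on 1 library. With 1 library left out, log2 changes ran from -0.13 to 0.040 for Prmt1, -0.25 to 0.18 for Sis, -0.96 to 0.30 for Reg3b, -0.11 to 0.10 for Ccnd2, -0.33 to 2.40 for Hbb-bt, -0.19 to 0.018 for Mki67, -0.40 to 2.11 for Hmox1, -0.21 to 0.54 for Apoa4, -0.063 to 0.50 for Apob, -0.032 to 0.21 for Top2a and -0.053 to 0.041 for Rfx7. With the Y-linked covariate Sis was 0.066 and Ccnd2 -0.0096, and with the block the log2 change of Ccnd2 was -0.00401. Rfx7 was 0.010 with DESeq2, 0.0097 with its size factors, 0.017 with a mean count of at least 50, 0.015 without the abundant genes and 0.0063 with only the KO libraries. Of 544 list medians, 518 moved by less than the spread between libraries and 26 of 11 lists by more. The median of all genes stayed between -0.01 and 0.01 in every alternative that gave a KO change. TMM and DESeq2's size factors both centre the typical gene near 0, so this median cannot show whether the scaling matters.

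With 3 mice per day, sequenced to 15390043 to 29330630 counts each, the calls depend on single libraries of both days. With KO day 7 replicates 1, 2 and 3 left out in turn 0, 3 and 119 genes were called, and with KO day 14 replicates 1, 2 and 3 left out 2, 0 and 3. Genes of few counts, such as Ak4 and Gm10801, have fold changes whose size is uncertain.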

Other observations

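In WT crypts over the same week, clock genes had a median below 0 and mitochondrially encoded genes one above 0, and both KO medians lay near 0. Of 18 circadian clock genes, 3 were higher (background 2.46%) and 9 lower (background 2.71%) in WT crypts at an unadjusted p below 0.05, with a median log2 change of -0.45. In KO crypts 2 were higher (background 5.59%) and 2 lower (background 3.67%), with a median of -0.11, which ran from -0.18 to 0.02 with 1 library left out, the value above 0 being without KO day 14 replicate 3. The KO change minus the WT change had an unadjusted p below 0.05 in 6 of these genes, 4 higher (background 2.53%) and 2 lower (background 1.93%), with 0 past adjustment in edgeR. With 1 of the 12 libraries left out, 3 to 6 were higher and 1 to 4 lower, the 1 lower being without WT day 7 replicate 2. Mitochondrially encoded genes had a median of 0.49 in WT crypts with 6 of 13 higher at that p (background 2.46%), and of 0.07 in KO crypts with 0. The KO change minus the WT change had a median of -0.46, with 1 of 13 lower (background 1.93%) and 0 higher at that p. With 1 of the 12 libraries left out, 1 to 5 were lower. Relative to the WT mean of day 7, the median log2 level of these genes overlapped between the WT days. It ran from -0.34 to 0.34 on day 7 and from 0.28 to 0.57 on day 14. The KO median ran from -0.12, without KO day 14 replicate 1, to 0.15, without KO day 7 replicate 3. The share of counts from mitochondrial genes was 9.002 to 11.9% in the KO libraries of day 7 and 8.50 to 12.7% in those of day 14. The time of day at which mice were killed is not given in the sources used here.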
